A study of Mus musculus with 6 samples.

Results

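Ion channel genes were followed in primary epithelial cells grown from mouse kidney tubules, with and without the epithelial ETS transcription factor gene Elf3. The members were taken by gene symbol: potassium channels and their subunits (Kcn), voltage-gated sodium (Scn) and calcium (Cacn) channels, TRP, Piezo and polycystin genes, and the Clcn, Clca, Clic, Ano and Lrrc8 families linked to chloride currents. The rule found 194 genes among the 55487 rows of the count table. It holds some genes that are not pores, such as accessory subunits and the Clca proteins, and leaves out others that are, such as the epithelial sodium channel.

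Bulk RNA sequencing covered 6 libraries. The 3 knockout libraries came from cells infected with a Cre adenovirus to delete Elf3, as the labels put it; which part of the gene is lost is not stated. The 3 control libraries, labelled wild type, came from cells given a control adenovirus. All 6 were labelled as treated with TNFα and IFNγ and as 1 batch, and no unstimulated library was analysed here, so a response to the cytokines cannot be read from them. Cre and the genotype label go together, so their effects cannot be told apart. Nothing in the labels says whether replicates were separate cultures or animals, so p-values measure only the spread between these libraries, which may be technical.

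Total estimated counts ranged from 8961779 to 10774195 per library, and 3 counts corresponded to 0.278 to 0.335 CPM, the unit used for each gene, counts relative to library size. Elf3 had 4.26, 3.01 and 2.03 CPM in the knockout libraries, against 18.9, 24.3 and 22.8 CPM in the controls, so the knockout mean was 14.1% of the control mean (log2 fold change -2.84, SE 0.18, adjusted p = 6.85e-14, edgeR). A two-sided exact permutation test gave p = 0.1, the smallest that 3 against 3 libraries allow. The 12 listed markers of tubular epithelium all passed the count filter, with Krt8, a keratin of simple epithelia, at 2908 ± 68.5 CPM in the knockout and 2123 ± 73.5 CPM in the controls (SD, n = 3 each). Of the 12 markers, 6 were higher in the knockout, Krt8 among them, and 6 were lower (adjusted p under 0.05, edgeR). Of 36 markers of single nephron segments, 14 passed the filter and 6 had 0 counts in every library, these being Slc22a6 of the proximal tubule, Kcnj1 and Pvalb of the thick limb and distal tubule, and Aqp2, Foxi1 and Insrr of the collecting duct.

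Ion channels let ions cross membranes down gradients that pumps set up. In the kidney tubule, potassium channels hold the membrane voltage and recycle potassium for the pumps, chloride channels and exchangers carry salt across the cell and acidify endosomes, and cation channels of the TRP, Piezo and polycystin families respond to flow, stretch and chemical signals. Voltage-gated sodium and calcium channels are best known from nerve and muscle.

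A total of 80 of the 194 genes passed the count filter, and of these 41 were called at an adjusted p under 0.05 (edgeR quasi-likelihood test, Benjamini-Hochberg adjustment over all 13755 genes tested). That was 51.2% of the tested channel genes, where 36.6% of all genes tested were called. Of the 80, 24 rose (30.0%, against 18.3% of all genes) and 17 fell (21.2%, against 18.3%). By 2-fold or more, 9 rose (11.2%, against 2.99% of all genes) and 4 fell (5.0%, against 3.05%), together 13 of 80 or 16.2%, against 6.04%. The median size of the log2 fold change was 0.39 over the tested channel genes and 0.20 over all genes, and its signed median was 0.06 and -0.01. Libraries of the 2 groups did not overlap for 46 of the 80 (57.5%), against 46.7% of all genes. Genes that pass the filter through the group where they are high had to differ, so these shares describe the tested genes and not all 194. Fewer cells of a type and less RNA per cell cannot be told apart in such bulk libraries.

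The large changes belonged to few genes. Clca3b and the potassium channel gene Kcnj16 fell 12.4-fold and 8.18-fold. The sodium channel gene Scn3b rose 5.31-fold. The potassium channel genes Kcnq1, Kcnk13 and Kcnn4 rose 2.75-fold, 2.73-fold and 2.43-fold. Further genes past 2-fold, Trpv3, Kcnmb1, Kcnab3, Cacna1b and Clca3a2, averaged under 5 CPM in both groups.

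**Figure D1:**
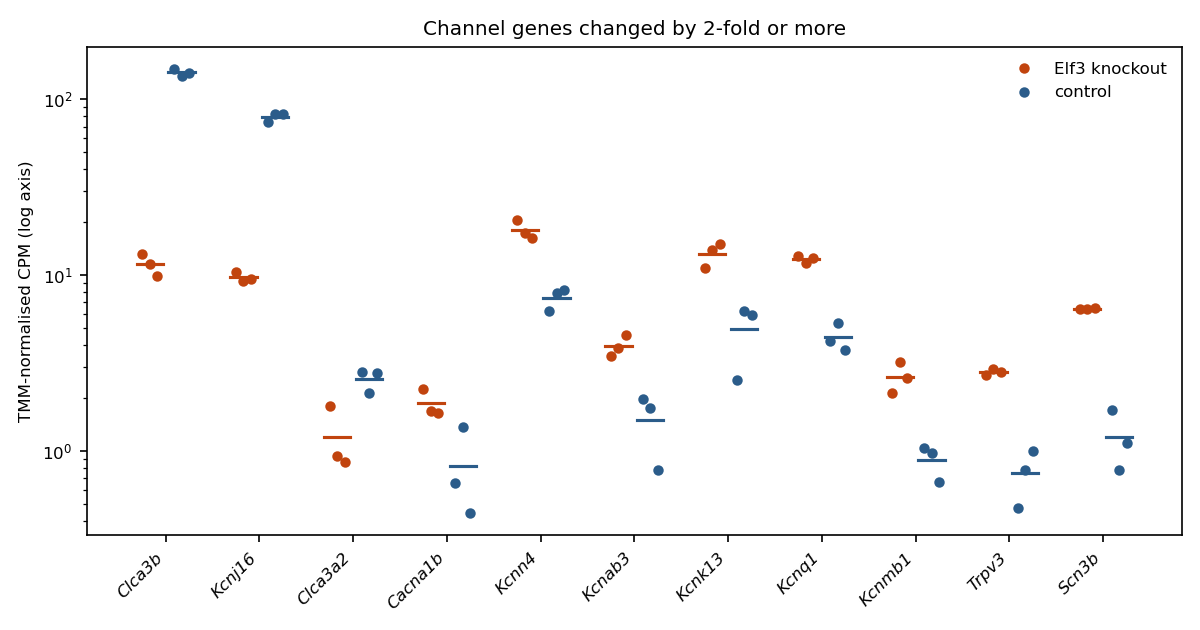
TMM-normalised CPM on a log axis for 11 channel genes called with a change of 2-fold or more, ordered by fold change. Points are libraries and bars are means of 3, with the knockout left of the control. Scn3b sits between 6.39 and 6.47 CPM in the knockout and between 0.777 and 1.70 CPM in the controls, and Clca3b and Kcnj16 lie lower in every knockout library than in every control.

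The 4 sequences that follow are the promoter stretches of those genes with a change of 2-fold or more and at least 5 CPM in a group that the RefSeq promoter table holds. They are shown because ETS factors as a family recognise a GGAA core. Each runs 5′ to 3′ on the gene's own strand up to its annotated start, in RefSeq sequence of GRCm38.p6, and capitals mark GGAA or its reverse complement TTCC. They lie at chr3:144849358-144849552 on the minus strand for Clca3b, chr11:110967783-110968032 on the plus strand for Kcnj16, chr7:24370013-24370262 on the plus strand for Kcnn4 and chr12:99964249-99964498 on the plus strand for Kcnk13.
Clca3b: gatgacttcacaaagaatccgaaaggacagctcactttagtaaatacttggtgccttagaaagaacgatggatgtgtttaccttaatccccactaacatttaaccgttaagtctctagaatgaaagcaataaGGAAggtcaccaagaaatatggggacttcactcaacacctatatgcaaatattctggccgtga
Kcnj16: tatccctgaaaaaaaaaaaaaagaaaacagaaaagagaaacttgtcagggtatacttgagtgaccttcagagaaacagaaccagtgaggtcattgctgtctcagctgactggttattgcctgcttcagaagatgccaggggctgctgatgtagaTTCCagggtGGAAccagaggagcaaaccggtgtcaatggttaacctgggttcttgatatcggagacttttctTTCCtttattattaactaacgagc
Kcnn4: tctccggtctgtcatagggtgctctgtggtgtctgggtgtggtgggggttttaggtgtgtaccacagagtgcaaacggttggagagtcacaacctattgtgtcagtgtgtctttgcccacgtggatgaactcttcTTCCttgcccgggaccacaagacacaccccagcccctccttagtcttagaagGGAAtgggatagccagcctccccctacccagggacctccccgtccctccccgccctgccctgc
Kcnk13: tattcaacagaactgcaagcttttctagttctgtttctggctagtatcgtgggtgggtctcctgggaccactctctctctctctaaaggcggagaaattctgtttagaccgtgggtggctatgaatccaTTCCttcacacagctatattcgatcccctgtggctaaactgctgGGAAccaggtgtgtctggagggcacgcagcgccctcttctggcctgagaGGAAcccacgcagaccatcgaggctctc

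These stretches hold 1 core for Clca3b, 3 for Kcnj16, 2 for Kcnn4 and 3 for Kcnk13. The core is common: 93.4% of all 32851 windows of 250 bases before an annotated start in the table hold it on one strand or the other. The Clca3b stretch is shorter than these windows, at 195 bases, since its window reaches past the GENCODE start. Of the channel genes, 148 of the 194 symbols were in the table, with 196 windows, of which 92.3% hold it. The longer string AGGAAG, or CTTCCT on the other strand, occurs in 29.5% of all windows, in 26.1% of 23 windows of channel genes that fell, in 26.7% of 15 windows of those that rose and in 34.0% of 50 windows of those tested and not called. It contains the core, so the 2 searches overlap. Kcnj16 has 4 annotated starts in the table and the stretch shown is the one at the GENCODE gene start. A match of letters is no evidence of binding, and the windows leave out most regulatory sequence.

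All 3 tested sodium channel genes rose, out of 14 in the family. Scn3b, an accessory beta subunit, had 6.40, 6.39 and 6.47 CPM in the knockout, against 1.70, 0.777 and 1.10 CPM in the controls (log2 fold change 2.41, SE 0.29, adjusted p = 5.84e-08, edgeR). The lowest knockout library stood well above the highest control. Scn3b passed the count filter through its knockout libraries, so the 3 of 3 describes the tested genes and not the family.

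The other 11 genes of the family were under the count filter, and their few counts went both ways, with more in the knockout for 4 genes, fewer for 1 and equal sums for 6. The 1 with fewer, Scn2a, a pore gene, had 2, 0 and 0 counts in the knockout, against 5, 5 and 4 counts in the controls. Scn4b, a further beta subunit gene, had 10, 14 and 7 counts in the knockout, against 3, 5 and 0 counts in the controls, and was called higher when no filter was used (adjusted p = 0.0286).

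Calcium channel pore genes gave 3 rises and no call downwards among 5 tested of 10. Cacna1g, the T-type channel Cav3.1 that opens at low voltage, had 58.9, 61.9 and 61.8 CPM in the knockout, against 30.2, 33.4 and 37.2 CPM in the controls. The groups were clearly apart (1.82-fold, log2 fold change 0.86, SE 0.08, adjusted p = 4.1e-10, edgeR). In the deposited TPM, a level scaled for transcript length and library, it averaged 26.9 ± 2.00 in the knockout and 11.6 ± 1.70 in the controls. Cacna1b, the N-type pore, rose 2.20-fold from few reads, with 20, 18 and 17 counts in the knockout, against 7, 14 and 4 counts in the controls (adjusted p = 0.0365). Cacna1b passed the count filter through its knockout libraries. The call was lost by DESeq2 (adjusted p = 0.088) and in 5 of the 6 fits that left out 1 library (0.0563 to 0.154), with log2 fold changes of 0.87 to 1.71 over the 6.

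Cacna1a, the P/Q-type pore, is uncertain. By counts it had 34, 46 and 32 in the knockout, against 24, 25 and 20 in the controls (1.62-fold higher, adjusted p = 0.0486, and 0.105 by DESeq2, which left Cacna1g as the only pore gene called by both tools). In the deposited TPM it had 1.34, 1.97 and 2.78 in the knockout, against 2.09, 1.93 and 17.8 in the controls, where control replicate 3 stood far above the rest although its count was the lowest of the 6. With limma on log2(TPM + 1) the direction turned (log2 fold change -0.90, adjusted p = 0.408). Cacna1a was the only 1 of the 41 called genes whose mean TPM differed the other way.

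Accessory calcium channel subunits gave no call. None of 6 tested genes of 16 was called by edgeR or DESeq2, and 0 had an unadjusted p under 0.05 in edgeR. Cacnb3, the cytoplasmic beta subunit with the highest level, averaged 102.5 ± 4.29 CPM in the knockout and 97.5 ± 3.44 CPM in the controls, with an approximate 95% interval of -0.05 to 0.19 for the log2 fold change. Cacna2d1, an alpha2delta subunit that helps bring pores to the surface, averaged 25.5 ± 2.60 CPM in the knockout and 23.0 ± 0.81 CPM in the controls (interval -0.05 to 0.36). The difference between pores and accessory genes was not tested.

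Voltage-gated potassium channel genes went both ways, with 3 rising, 2 falling and 4 not called among 9 tested of 40. Kcnq1 (ENSMUSG00000009545, mm10 chromosome 7, 143106362 to 143427042, plus strand) encodes a slowly opening channel that many epithelia use. It had 12.8, 11.8 and 12.5 CPM in the knockout, against 4.24, 5.34 and 3.76 CPM in the controls. Each knockout library was more than 2-fold above each control (log2 fold change 1.46, SE 0.18, adjusted p = 7.8e-08, edgeR). Kcne1, the best known partner subunit of Kcnq1, had 0 counts in every library.

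Kcnq1 shares its locus with the imprinted antisense RNA Kcnq1ot1, transcribed from the other strand across exons of Kcnq1. The strand setting of the counting is not known here, so reads of the pair may be mixed. Kcnq1ot1 was not called, at 3.59, 6.11 and 6.28 CPM in the knockout, against 7.16, 8.94 and 6.41 CPM in the controls (log2 fold change -0.48, adjusted p = 0.0727). Cdkn1c, the nearest tested gene downstream, a cyclin-dependent kinase inhibitor 31.3 kb away, had 19.4, 22.3 and 23.3 CPM in the knockout, against 7.54, 8.45 and 8.5045 CPM in the controls, a 2.66-fold rise (adjusted p = 4.07e-10). Tssc4, 35.3 kb to the other side, was not called (log2 fold change 0.08, adjusted p = 0.525).

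The other calls in the voltage-gated group were of low genes. Kcnf1, a subunit that modifies other channels, rose 1.92-fold (4.62 ± 0.57 CPM in the knockout, 2.41 ± 0.81 CPM in the controls). Kcnh7 fell by 0.97 on the log2 scale (2.44 ± 0.08 CPM in the knockout, 4.78 ± 0.57 CPM in the controls), and Kcnc2 fell 1.90-fold (2.82 ± 0.80 and 5.38 ± 0.79 CPM). Exons of Kcnh7 overlap Gca on the opposite strand. Kcnq5, of the same family as Kcnq1, was not called (log2 fold change -0.22).

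Inward rectifiers, which hold the resting voltage near that of potassium, gave 1 call, downwards, among 4 tested of 15. Kcnj16 (ENSMUSG00000051497, mm10 chromosome 11, 110968033 to 111027968, plus strand) encodes Kir5.1, which in the distal nephron pairs with Kir4.1, the product of Kcnj10, in the basolateral membrane. It had 10.4, 9.21 and 9.56 CPM in the knockout, against 74.2, 82.4 and 82.1 CPM in the controls. The fall was 8.18-fold with little spread within either group (log2 fold change -3.03, SE 0.09, adjusted p = 1.05e-21, edgeR).

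Its partner gene Kcnj10 had 9 counts over the knockout libraries and 12 over the controls, too few to test. Kcnj15, encoding Kir4.2, which can also pair with Kir5.1, averaged 5.19 ± 0.45 CPM in the knockout and 4.72 ± 0.37 CPM in the controls (adjusted p = 0.643). Kcnj11 and Kcnj4 were not called either. Summed over the 15 inward rectifier genes the level was 14.1 to 15.3 TPM in the knockout and 45.4 to 49.7 TPM in the controls, and most of that sum in the controls was Kcnj16 at 39.0 ± 2.38 TPM. Kcnj2, 38.2 kb downstream of Kcnj16, had 28 counts over the knockout and 35 over the controls. The nearest tested genes lay far off: Map2k6, a kinase gene 442.5 kb upstream, fell 2.48-fold (adjusted p = 2.57e-05), and Sox9, 1754.3 kb downstream, was not called.

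Tandem-pore (K2P) potassium channels carry background current. Of 5 tested of 14, 1 rose, 1 fell and 3 were not called. Kcnk1, encoding TWIK-1 and the highest of them, had 76.1, 69.8 and 70.9 CPM in the knockout, against 96.5, 97.1 and 92.0 CPM in the controls, a 1.32-fold fall (adjusted p = 8.31e-06, edgeR). Kcnk13, encoding THIK-1, had 11, 13.8 and 15.0 CPM in the knockout, against 2.54, 6.22 and 5.96 CPM in the controls (2.73-fold higher, adjusted p = 1.66e-06). Control replicate 1 was the lowest, and all controls were below all knockout libraries. Kcnk5, encoding TASK-2, which proximal tubule cells use, averaged 44.5 ± 4.11 CPM in the knockout and 44.5 ± 1.84 CPM in the controls, with an interval of -0.16 to 0.16 for the log2 fold change.

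Among calcium-activated potassium channels, 1 rose, 1 fell and 3 were not called of 5 tested. Kcnn4, the intermediate-conductance channel KCa3.1, had 20.5, 17.4 and 16.2 CPM in the knockout, against 6.22, 7.87 and 8.17 CPM in the controls (2.43-fold higher, log2 fold change 1.28, SE 0.15, adjusted p = 2.66e-08, edgeR). Kcnma1, the pore of the large-conductance BK channel, fell 1.91-fold, with 42, 33 and 42 counts in the knockout, against 69, 60 and 94 counts in the controls (adjusted p = 0.00199). The small-conductance genes Kcnn1, Kcnn2 and Kcnn3 had log2 fold changes of 0.86, 0.62 and 0.37 and were not called.

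Accessory potassium channel subunits gave 2 rises and 3 genes not called among 5 tested of 15. Both genes that rose passed the count filter through their knockout libraries, so the 2 of 5 describes the tested genes and not the group. Kcnmb1, a beta subunit of the BK channel, had 19, 34 and 27 counts in the knockout, against 11, 10 and 6 in the controls (2.93-fold higher, adjusted p = 0.00136), the opposite direction to the pore gene Kcnma1. Kcnab3, a beta subunit of voltage-gated channels, had 31, 41 and 47 counts in the knockout, against 21, 18 and 7 in the controls (2.59-fold higher, adjusted p = 0.000992). Kcnmb4, another BK subunit, had 42 counts over the knockout libraries and 46 over the controls.

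**Figure D2:**
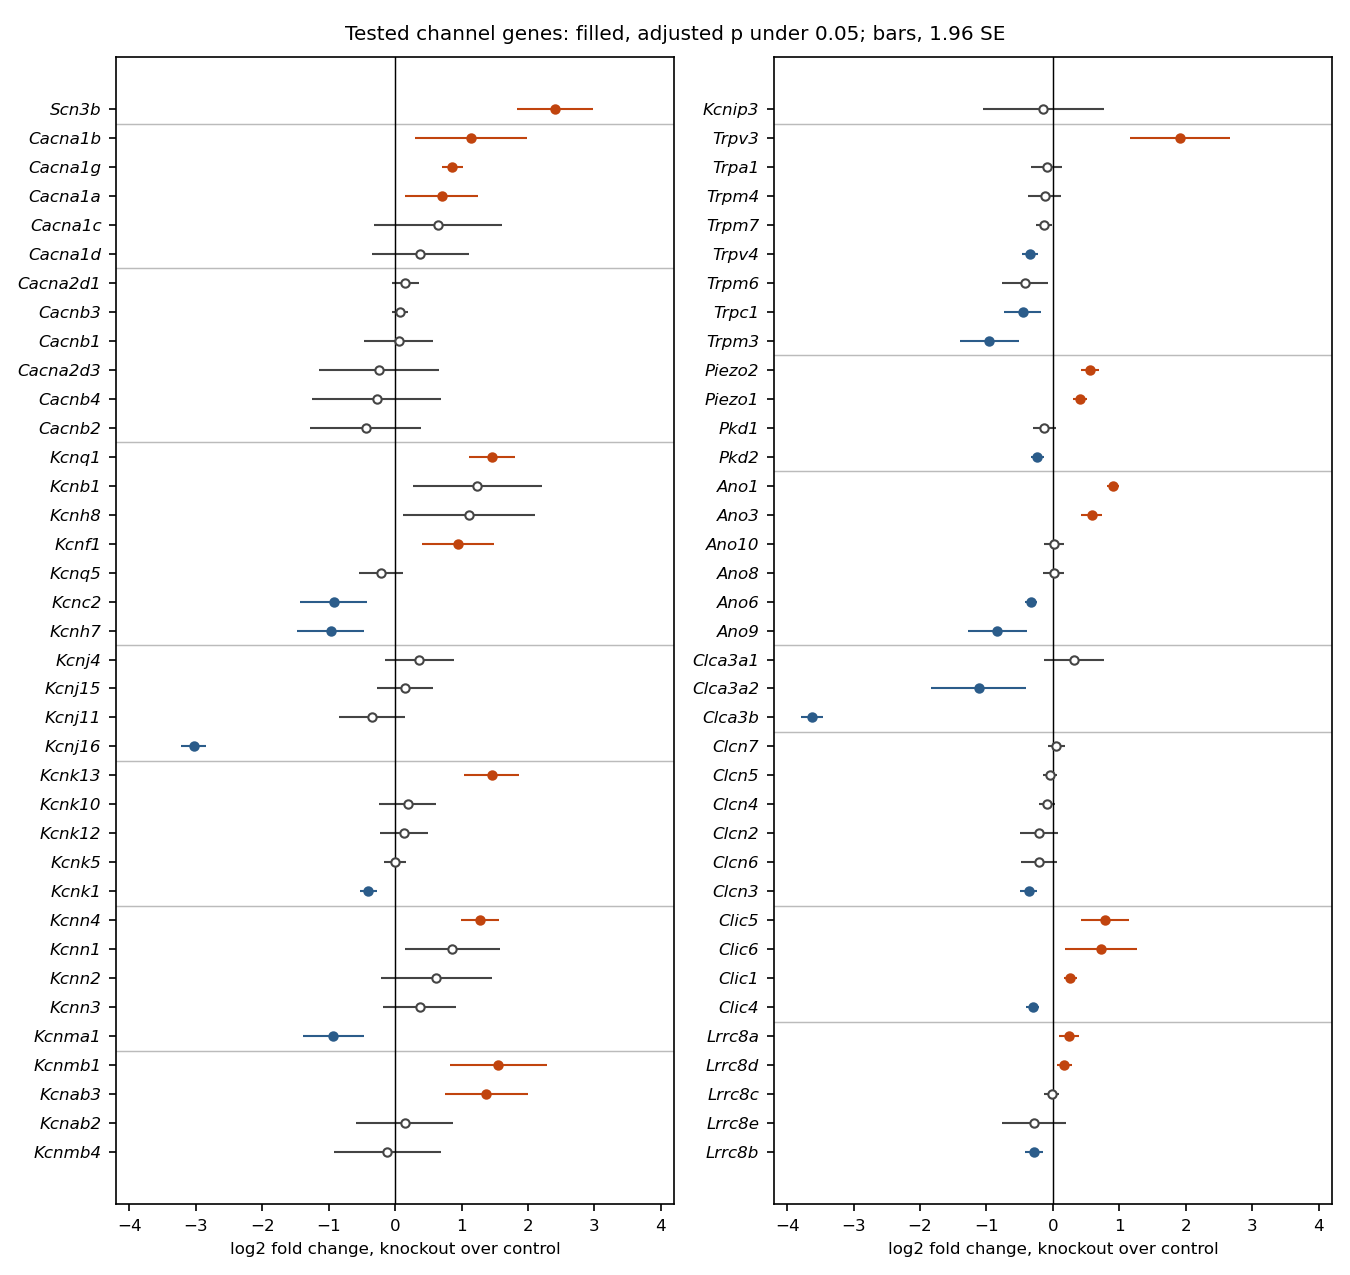
Log2 fold change of knockout over control for 74 of the 80 tested channel genes, in 2 columns and grouped by family between grey lines, with bars for the approximate 95% interval. Filled points are genes called at an adjusted p under 0.05, and open points are genes not called. Scn3b at the top left lies at 2.41, and Kcnj16 and Clca3b lie farthest to the left, at -3.03 and -3.63.

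TRP genes fell in 4 of 9 tested cases and rose in 1, out of 22. Trpv4, a cation channel that responds to swelling and flow and the TRP gene with the highest TPM, had 91.6, 84.7 and 83.6 CPM in the knockout, against 109, 108 and 114 CPM in the controls (1.27-fold lower, adjusted p = 3.54e-05, edgeR). Trpm3 fell 1.94-fold (4.196 ± 1.04 CPM in the knockout, 8.21 ± 2.46 CPM in the controls), and Trpc1 1.37-fold (10.5 ± 1.06 and 14.4 ± 1.48 CPM in the same order).

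Trpv3, a warmth-activated channel known from keratinocytes, had 24, 31 and 29 counts in the knockout, against 5, 8 and 9 in the controls (3.76-fold higher, adjusted p = 0.000187). Trpv3 passed the count filter through its knockout libraries. Trpm7, a magnesium-permeable channel fused to a kinase, averaged 112 ± 6.11 CPM in the knockout and 123.1 ± 7.38 CPM in the controls and was not called (adjusted p = 0.0872). It was called lower with library totals (0.0389) and without knockout replicate 2 (0.0446). Trpm6, its relative of the distal convoluted tubule, averaged 6.37 ± 0.34 CPM in the knockout and 8.56 ± 0.68 CPM in the controls (adjusted p = 0.06). The sum over the 22 TRP genes was 110.5 to 114.7 TPM in the knockout and 130.2 to 141.8 TPM in the controls.

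Both Piezo genes, which encode stretch-gated cation channels, rose. Piezo1 had 318, 375 and 360 CPM in the knockout, against 264, 275.5 and 257 CPM in the controls (1.32-fold, adjusted p = 3.7e-07, edgeR). Piezo2 had 101, 126 and 112 CPM in the knockout, against 79.5, 76.1 and 74.4 CPM in the controls (1.47-fold, adjusted p = 1.2e-07). Knockout replicate 1 was the lowest of the knockout libraries for both genes and still above every control. Exons of Piezo1 overlap those of Ctu2 on the opposite strand. The polycystin genes are mutated in dominant polycystic kidney disease. Pkd2, a cation channel, fell 1.18-fold (189 ± 4.82 CPM in the knockout, 223 ± 4.06 CPM in the controls, adjusted p = 0.000346), and Pkd1, its large receptor-like partner, was not called at 51.5 ± 8.88 CPM in the knockout and 56.8 ± 2.31 CPM in the controls (interval -0.31 to 0.04).

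Anoctamins are calcium-activated chloride channels and lipid scramblases. Of 6 tested of 10, 2 rose, 2 fell and 2 were not called. Ano1 (ENSMUSG00000031075, mm10 chromosome 7, 144588549 to 144751974, minus strand), the chloride channel TMEM16A, had 551, 583 and 582 CPM in the knockout, against 315, 304 and 299 CPM in the controls. The knockout libraries stood well above the controls (1.87-fold, log2 fold change 0.90, SE 0.05, adjusted p = 1.95e-16, edgeR). Per length Ano1 was the second most abundant channel gene in both groups, at 430 ± 18.1 TPM in the knockout and 237 ± 6.53 TPM in the controls.

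Ano3 rose 1.503-fold (49.7 ± 2.00 CPM in the knockout, 33.0 ± 1.76 CPM in the controls). Ano6, a scramblase that exposes phosphatidylserine, fell 1.26-fold (211 ± 5.57 and 265 ± 2.90 CPM), and Ano9 fell 1.78-fold (4.35 ± 1.71 and 7.86 ± 1.08 CPM). Ano8 and Ano10 had intervals of -0.15 to 0.17 and -0.13 to 0.17. Summed over the 10 genes, anoctamin transcripts reached 556 to 594 TPM in the knockout, against 399 to 412 TPM in the controls.

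Clca genes lie side by side on chromosome 3 and encode secreted proteins that process or regulate calcium-activated chloride conductance, rather than pores. Of 3 tested of 7, 2 fell and 1 was not called. Clca3b (ENSMUSG00000037033, mm10 chromosome 3, 144822623 to 144849357, minus strand) had 13.2, 11.6 and 9.85 CPM in the knockout, against 148, 137 and 141 CPM in the controls. The fall was 12.4-fold and every knockout library lay far below every control (log2 fold change -3.63, SE 0.09, adjusted p = 3.97e-24, edgeR).

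Clca3a2, which begins 3.1 kb away, fell 2.17-fold from a low level, with 16, 10 and 9 counts in the knockout, against 30, 22 and 25.4 counts in the controls (adjusted p = 0.0164). Clca3a2 passed the count filter through its control libraries. Clca3a1, on the far side of Clca3a2, was not called, with 51, 63 and 44 counts in the knockout, against 47, 37 and 42.6 counts in the controls (log2 fold change 0.32, adjusted p = 0.295). The 2 are close relatives and each had a fractional count in 1 library, so their values are uncertain. Odf2l, the nearest tested gene on the other side of Clca3b at 269.2 kb, rose 1.38-fold. Summed over the 7 Clca genes, the level was 8.64 to 11.2 TPM in the knockout and 77.1 to 83.7 TPM in the controls.

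The Clcn genes, plasma membrane chloride channels and chloride-proton exchangers of endosomes and lysosomes, gave few calls. Of 7 tested of 9, 1 rose, 1 fell and 5 were not called. Clcn3, an endosomal exchanger, averaged 81.7 ± 3.04 CPM in the knockout and 105 ± 5.28 CPM in the controls (1.29-fold lower, adjusted p = 2.5e-05, edgeR). Clcn5, the exchanger mutated in Dent disease of the proximal tubule, averaged 205 ± 11.4 CPM in the knockout and 212 ± 2.68 CPM in the controls, with an interval of -0.14 to 0.06 for the log2 fold change. On TPM the sign of this small difference turned (58.6 ± 5.77 TPM in the knockout, 51.8 ± 0.52 TPM in the controls), without a call.

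Clic proteins are small chloride intracellular channel proteins found in soluble and membrane forms. All 4 tested of 5 were called, 3 upwards and 1 downwards. Clic1 was the most abundant channel gene per length, at 665 ± 28.9 TPM in the knockout and 557 ± 25.1 TPM in the controls, and rose 1.20-fold (506, 450 and 480 CPM in the knockout, against 383.5, 395 and 422 CPM in the controls, adjusted p = 8.84e-05, edgeR). Clic4 fell 1.24-fold (409, 438 and 455 CPM in the knockout, against 514, 553 and 544 CPM in the controls, adjusted p = 4.61e-06). Clic5 rose 1.72-fold and Clic6 1.65-fold from low levels, at 8.72 ± 0.57 and 4.07 ± 0.58 CPM in the knockout, against 5.07 ± 0.25 and 2.44 ± 0.62 CPM in the controls.

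The 5 Lrrc8 genes, subunits of the volume-regulated anion channel, were all tested, and 2 rose, 1 fell and 2 were not called. Lrrc8a, the subunit the channel needs, averaged 83.5 ± 12.1 CPM in the knockout and 70.7 ± 2.10 CPM in the controls (1.18-fold higher, adjusted p = 0.0139, edgeR), with fractional counts in all 6 libraries and exons shared with other gene models. Lrrc8d rose 1.13-fold (152 ± 10.6 and 135 ± 6.77 CPM). The groups overlapped for both genes. Lrrc8b fell 1.22-fold (90.7 ± 10.97 CPM in the knockout, 111 ± 5.46 CPM in the controls, adjusted p = 0.00173), and Lrrc8c, which lies between Lrrc8b and Lrrc8d on chromosome 5, averaged 148 ± 9.18 CPM in the knockout and 149.5 ± 8.52 CPM in the controls (interval -0.13 to 0.10).

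**Figure D3:**
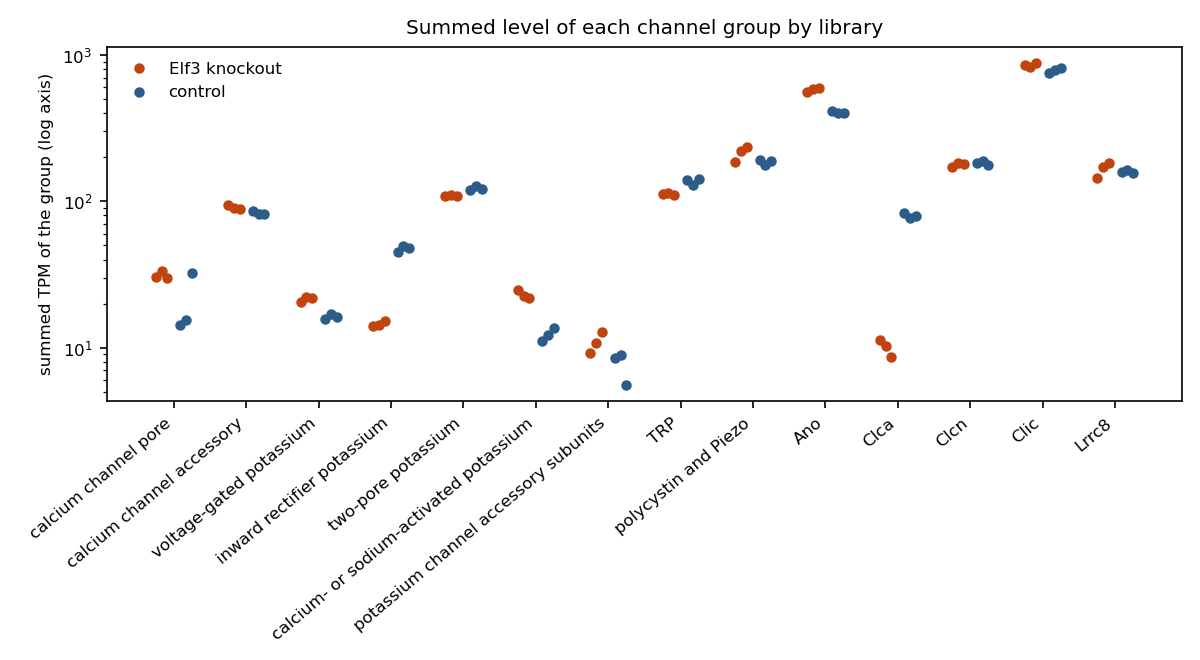
Summed TPM of 14 channel groups in each library, on a log axis, with the knockout left of the control (two-pore potassium is the K2P group). Sums are dominated by the most abundant genes of each group. The Clca and inward rectifier sums are lower and the Ano sum is higher in every knockout library than in every control, and the calcium channel pore sum of control replicate 3 holds the high Cacna1a value.

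Over all 194 genes the summed level was 2396, 2468 and 2540.4 TPM in the knockout, against 2253, 2268 and 2311 TPM in the controls. In each group, Clic1, Ano1 and Clic4 were the 3 highest genes and weigh most in this sum. Their means were 665, 430 and 186 TPM in the knockout, against 557, 237 and 230 TPM in the controls. A mean of 10 TPM in a group was reached by 30 genes, of which 19 were called (63.3%). The share of all genes called at that TPM was not computed. At a mean of at least 5 CPM in a group, 58.8% of 51 channel genes were called, against 40.3% of all 11303 such genes. Scn3b, Kcnq1 and Kcnk13 lay under 10 TPM in both groups. Clca3b stood at 6.14 ± 0.78 TPM in the knockout and 75.8 ± 2.91 TPM in the controls, and Kcnj16 at 4.78 ± 0.21 TPM in the knockout and 39.0 ± 2.38 TPM in the controls.

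**Figure D4:**
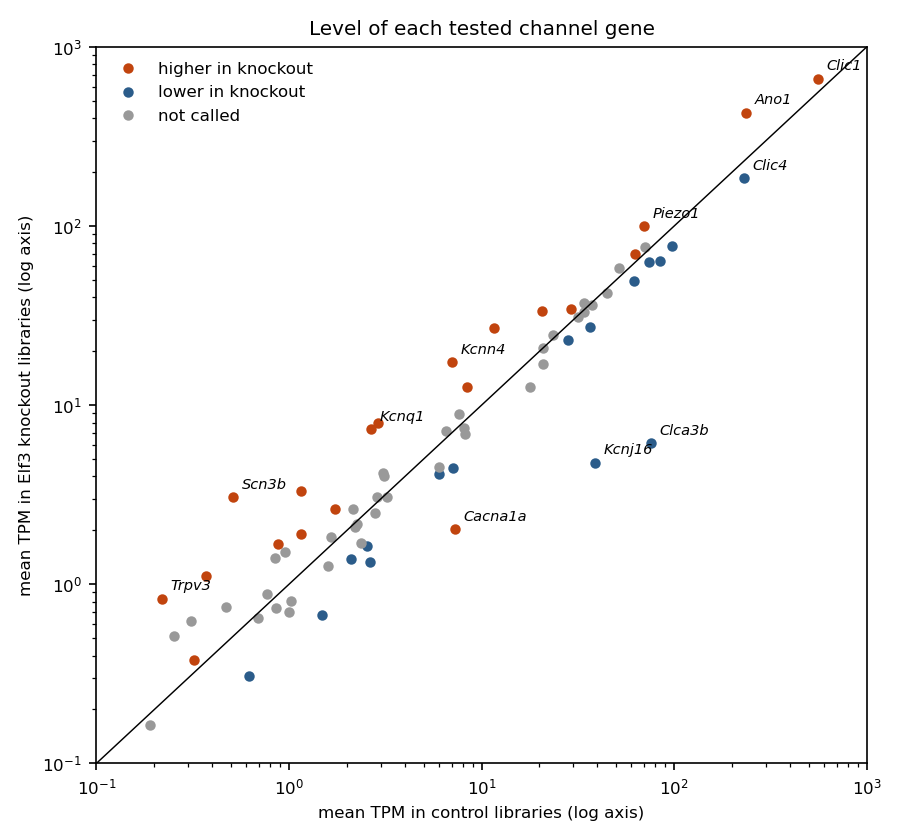
Mean TPM of 74 of the 80 tested channel genes in the knockout against the controls, both on log axes, with the line of equal levels. Colours give the calls of the count test. Clca3b and Kcnj16 lie far below the line, Scn3b far above it, and Cacna1a lies below the line although its counts were higher in the knockout.

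The other 114 genes were under the count filter. Of these, 33 had 0 counts in every library, 44 had 1 to 10 counts over all 6 and 37 had more than 10. The 33 included Kcnj1, the apical ROMK channel of the distal nephron, the epithelial calcium channel Trpv5 and Kcnj13. Without a filter, 6 of the 114 were called, all higher in the knockout. Besides Scn4b these were Kcnt1, Cacna1e, Scn9a and Kcnk3, with 13, 11, 11 and 11 counts over the knockout libraries and 0 over the controls, and Clca2, with 15 and 1. Kcnk3 had 8 of its 11 counts in knockout replicate 3. At such counts the calls rest on very few reads, and genes with reads in the knockout alone could only be called higher. The unfiltered fit called 5106 of all 22627 genes it tested. The share among all genes under the filter was not computed.

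Of the 41 calls, 32 held in every count-based alternative that tested them. The other 9 were lost without at least 1 library, and 8 of them are given here. Cacna1b was not called without any of the knockout replicates (adjusted p = 0.122, 0.0623 and 0.0563) or without control replicate 1 (0.139) or 3 (0.154). Cacna1a was lost without each library but knockout replicate 3 (0.0833 to 0.197). Clic6 was lost without knockout replicate 1 (0.0576) or 2 (0.16) or control replicate 2 (0.102) or 3 (0.142).

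Clca3a2 was lost without knockout replicate 2 (0.0847) or 3 (0.0891) or control replicate 1 (0.072) or 3 (0.0523). Lrrc8d was lost without knockout replicate 2 (0.0889) or 3 (0.106) or control replicate 1 (0.0726) or 2 (0.127), and Lrrc8a without knockout replicate 2 (0.0534) or 3 (0.138) or control replicate 3 (0.0573). Trpc1 was lost without knockout replicate 3 (0.0662) or control replicate 2 (0.065), and Kcnf1 without control replicate 1 (0.0752).

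Channels outside the name rule, from a list of 61 genes, gave 8 rises, 7 falls and 24 not called among 39 tested, with a median log2 fold change of 0.09. For this list and those that follow, the share called over all genes tested was 36.6% (18.3% higher and 18.3% lower). Cftr, a chloride channel activated through cyclic AMP signalling, fell 3.43-fold (8.04 ± 0.99 CPM in the knockout, 27.7 ± 2.42 CPM in the controls, adjusted p = 8.41e-13, edgeR). Itpr3, an inositol trisphosphate receptor of the endoplasmic reticulum, rose 1.52-fold (460 ± 29.5 and 304 ± 14.4 CPM), and Tmc4 fell 1.36-fold (70.1 ± 2.23 and 95.2 ± 4.01 CPM). Scnn1g, the gamma subunit of the epithelial sodium channel, averaged 0.394 ± 0.439 CPM in the knockout and 1.95 ± 0.82 CPM in the controls (adjusted p = 0.00114), close to the floor.

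Pumps and exchangers that set the ion gradients gave 7 rises, 7 falls and 8 not called among 22 tested of 30, with a median of -0.02. Atp2b1, a calcium pump of the plasma membrane, fell 1.89-fold (106 ± 7.48 CPM in the knockout, 200.5 ± 4.02 CPM in the controls, adjusted p = 2.96e-14, edgeR). Slc12a2, the sodium-potassium-chloride cotransporter NKCC1 that loads cells with chloride, fell 1.53-fold (112.5 ± 7.54 and 172 ± 5.67 CPM), and Atp1b1, a subunit of the sodium pump, 1.47-fold (161 ± 6.15 and 237 ± 4.46 CPM).

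Kinases, ligases and binding proteins that regulate channels gave 10 rises, 8 falls and 16 not called among 34 tested of 45, with a median of 0.03. Pkhd1, fibrocystin, a ciliary protein linked to Pkd2, fell 3.10-fold (68.4 ± 7.02 CPM in the knockout, 212 ± 10.1 CPM in the controls, adjusted p = 5e-19, edgeR). Wnk1, a kinase that controls salt cotransporters, rose 1.46-fold (530.0 ± 26.2 and 362.5 ± 6.26 CPM), and Rrad, a small GTPase that inhibits calcium channels, rose 2.10-fold (28.7 ± 3.55 and 13.7 ± 1.30 CPM).

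Many of these channels are also expressed in nerve, muscle and other cells, so marker lists of such cells were counted. Of 10 neuronal markers 4 were tested, 1 rose and 2 fell, with a summed level of 27.3 to 32.4 TPM in the knockout and 36.3 to 44.5 TPM in the controls, and Snap25 had 0 counts. Of 13 fibroblast and smooth muscle markers 9 were tested, 3 rose and 1 fell, with sums of 388 to 396 TPM in the knockout and 334 to 374 TPM in the controls, and Lum had 0 counts. Of 10 endothelial markers 4 were tested and 1, Kdr, rose, with sums of 27.1 to 30.5 TPM in the knockout and 19.6 to 24.4 TPM in the controls. Of 12 leukocyte markers 6 were tested and none called by edgeR or DESeq2, 1 having an unadjusted p under 0.05 in edgeR, with sums of 26.1 to 44.5 and 33.3 to 37.2 TPM in the same order, and Cd3e, Cd8a and Ms4a1 had 0 counts. Of 6 podocyte markers 4 were tested, 2 rose and 1, Wt1, fell (adjusted p = 0.0498, and 0.127 by DESeq2), with sums of 99.96 to 121 and 61.6 to 68.1 TPM.

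For nephron segments, proximal tubule markers gave 1 rise and 2 falls of 7 tested of 12 (sums of 31.3 to 31.6 TPM in the knockout and 23.3 to 28.7 TPM in the controls). Thick limb and distal tubule markers, which include Trpm6, gave 1 rise and 1 fall of 4 tested of 12 (13.5 to 16.4 and 20.4 to 23.3 TPM). Collecting duct markers gave 1 rise and 1 fall of 3 tested of 12 (27.8 to 29.2 and 16.3 to 21.4 TPM). The 12 general epithelial markers gave 6 rises and 6 falls (7127 to 7399 and 5424 to 5569 TPM). What part, if any, these shifts have in the channel results was not tested.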

How the data were processed

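The tables deposited by the authors hold estimated counts, not normalised, and TPM, which the authors scaled within each library. Per the submitters' processing notes featureCounts, Salmon and mm10 were used, with no versions, roles or strand setting. Whether the TPM were computed from the deposited counts is therefore not known here. Of the nonzero deposited counts 93.3% were whole within 1e-06. Counts were rounded and filtered with filterByExpr (13755 of 55487 genes kept). After TMM scaling, knockout and control were compared in edgeR 4.0.16 (R 4.3.3) by quasi-likelihood with no covariate, adjusting by Benjamini-Hochberg over all genes at a threshold of 0.05. CPM values are TMM-normalised and folds come from the model. SE is derived from the F statistic, and intervals are approximate 95% intervals from it. Floors cover counting error only. Levels are compared between genes only in TPM. The fit was tested on simulated data.

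Chi-square per degree of freedom between replicates was 2.03 to 3.67, more than counting error alone. Members and lists were chosen with earlier results of these data known. The genes named by rule were those called at 2-fold or more, up to 3 calls by p-value and the 2 highest by TPM in each channel group, and up to 3 calls in each list. The other called channel genes, genes under the filter, neighbours and partners were named after their values were seen. Positions and exon overlaps come from GENCODE M21, where all 194 genes were found. Alternatives were DESeq2 1.42.0, limma 3.58.1 (voom, and log2(TPM + pseudocount), which understates the change of low genes), other scalings and filters, a threshold of 0.01, a replicate block and leaving out each library. Some channel genes are counted in the totals but not reported here by name.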

Additional observations from a re-analysis of the deposited data

How the results depend on the processing

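The counts of channel genes called (24 higher and 17 lower) stayed within 1.5 times under RLE factors, library totals, DESeq2, limma-voom, no count filter, the 0.01 threshold and the replicate block. Leaving out each library gave 18 to 22 higher and 15 to 17 lower, and 4228 to 5009 of all genes. These fits tested 82 to 85 channel genes and 13977 to 14032 genes in all. With a mean of at least 5 CPM, which tested 47 of the channel genes, 15 were higher and 13 lower, and 4470 of all 11070 genes tested were called. With log2(TPM + 1) and a mean TPM of at least 0.5, 80 channel genes were tested, of which 13 were higher and 10 lower. In that fit 2712 of all 15429 genes tested, 7 other channels and 8 pumps and exchangers were called. With log2(TPM + 0.1) and the same filter, which tested the same numbers of genes, the calls were 13, 9, 2716, 7 and 8. The log2(TPM + 1) fit without a filter tested 161 channel genes and 22670 genes in all. It called 14 channel genes higher and 9 lower, 2175 of all genes, 6 other channels, 9 pumps and exchangers and 11 regulators of channels. The cause was not tested. On TPM 12 further calls were lost, mostly of low genes (among them Ano9, Clic5, Kcnab3, Kcnc2, Kcnh7, Kcnma1, Kcnmb1, Lrrc8b, Trpm3 and Trpv3), and 20 of the 41 held in every alternative that tested them.

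Cacna1a reversed on TPM (-0.898 with a pseudocount of 1, filtered or not, and -1.071 with 0.1). The other reversals were of genes not called. Clcn5 turned on TPM (0.171, 0.174 and 0.171) and ranged from -0.077 to 0.003 when 1 library was left out. Kcnk5 turned with RLE and DESeq2 (0.004 each) and on TPM (0.065, 0.068 and 0.065), and ranged from -0.039 to 0.079 with 1 library left out. Kcnmb4 ranged from -0.381 to 0.398 and Lrrc8c from -0.064 to 0.026 in the same way.

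No pairing of the libraries by replicate number was seen (correlations of same-numbered deviations -0.012, 0.047 and 0.032, and -0.101 to 0.068 for the other pairs). With 3 libraries per group this check cannot show that the cultures were unpaired. With the replicate block 24 channel genes were higher and 17 lower, 5146 genes were called in all, and the call of Cacna1a was lost (adjusted p = 0.0578). Cacna1a, Cacna1b and Clic6 were not called by DESeq2 (0.105, 0.088 and 0.0827). In the marker lists, the podocyte fall (Wt1) was lost in most settings (0.127 by DESeq2) and the fibroblast gene Col1a1 in several (0.0619 by DESeq2). Depth limits genes under about 5 CPM, which were 29 of the 80 tested.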
